A study of Mus musculus with 5 samples.

Results

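The genes described here encode scaffold proteins of the postsynaptic membrane and adhesion proteins that organise synapses. They were chosen by name, as a list of 33 gene symbols looked up in a table of 55573 genes, and the rule uses no measured value. The list was, however, chosen with earlier results of these data known. The list holds 5 Dlg genes, 4 Dlgap genes, 3 Shank genes, 3 Homer genes, the gephyrin gene Gphn, 2 neurexin genes, 3 neuroligin genes, 3 Lrrtm genes, 3 receptor phosphatase genes of the LAR type, Cask with 3 Lin7 genes, and 2 Magi genes. All 33 symbols were found.

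The study asked which RNAs depend on UPF1, the RNA helicase at the centre of nonsense-mediated mRNA decay (NMD), in mouse neural cells. Cells of the mouse neuroblastoma line Neuro-2A (N2A) were transiently transfected with 60 pmol of a commercial non-targeting siRNA (siCtl, 2 libraries, replicates 1 and 3) or with 60 pmol of an siRNA against Upf1 (siUpf1, 3 libraries, replicates 1, 2 and 3), and polyadenylated RNA was sequenced with strand information. No other treatment or genotype distinguishes the groups. The labels do not say whether libraries of a group came from separate cultures, so every p-value measures only the spread between these libraries, which may be technical.

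At excitatory synapses, glutamate receptors are held in place by layers of scaffold proteins. DLG proteins bind receptors at the membrane, DLGAP proteins link DLG to SHANK, and SHANK and Homer proteins form the deeper meshwork that reaches metabotropic receptors and actin, whereas gephyrin anchors glycine and GABA receptors at inhibitory synapses. Neurexins and LAR-type phosphatases sit mainly on the axonal side and bind partners across the cleft, such as neuroligins and LRRTM proteins, while CASK, LIN7 and MAGI proteins are PDZ-domain scaffolds that attach to the tails of such adhesion proteins. N2A cells are a dividing tumour line, so these mRNAs were measured outside the synapses for which the proteins are named.

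The siRNA against Upf1 is shown because each of its strands can also pair through its seed, bases 2 to 8, with the 3′ untranslated region (3′ UTR) of other mRNAs. Its 19 bases are given for both strands with the seed in capitals. The sense strand is the sequence in the labels and the antisense strand is its reverse complement.
siRNA sense strand: uCAAGGUUccugauaauua
siRNA antisense strand: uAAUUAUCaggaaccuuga

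Upf1 itself, on chromosome 8 (70331525 to 70353278, GRCm38), had 5217 and 5243 normalised read counts in the siCtl libraries and 2403, 2496 and 2449 in the siUpf1 libraries. Normalised read counts are reads scaled for the depth of each library by DESeq2's size factors. The siUpf1 mean was 46.8% of the siCtl mean (log2 fold change -1.10, SE 0.051, DESeq2 adjusted p = 7.09e-101), so the labels of all 5 libraries matched the level of the targeted gene. The libraries held 20402205 to 27717594 counted reads, and every pair of libraries within a group differed by more than sampling noise. Of the neuroblastoma markers, 13 had enough reads to be tested, while Nefl stayed under 5 normalised counts.

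Many of these genes were higher after Upf1 knockdown and none was lower past the threshold, which was a DESeq2 adjusted p under 0.05 over all genes ("called"). Of the 33 members, 26 were tested, and 13 of the 26 (50%) were called higher in siUpf1, where 22.0% of the 15191 genes tested across the whole table were called higher. None was called lower, where 22.9% of all tested genes were. Of the other 7 members, Ptprd, Lrrtm1 and Lrrtm2 had no read, and Dlgap1, Dlgap2, Nlgn1 and Lin7a had too few to be tested. The 13 called members came from 9 of the 11 role groups, the exceptions being gephyrin and the Magi genes. All 3 siUpf1 libraries lay above both siCtl libraries for 17 tested members, including every called one, against 34.3% of all genes tested, and all 3 lay below for 4 members (Dlg1, Dlg5, Homer3 and Magi1), against 35.2%. The median log2 fold change of the 26 members was 0.39 and that of all tested genes was -0.00. Taken library by library against the siCtl mean, the members' median was 0.41, 0.40 and 0.39 in siUpf1 replicates 1, 2 and 3.

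**Figure D1:**
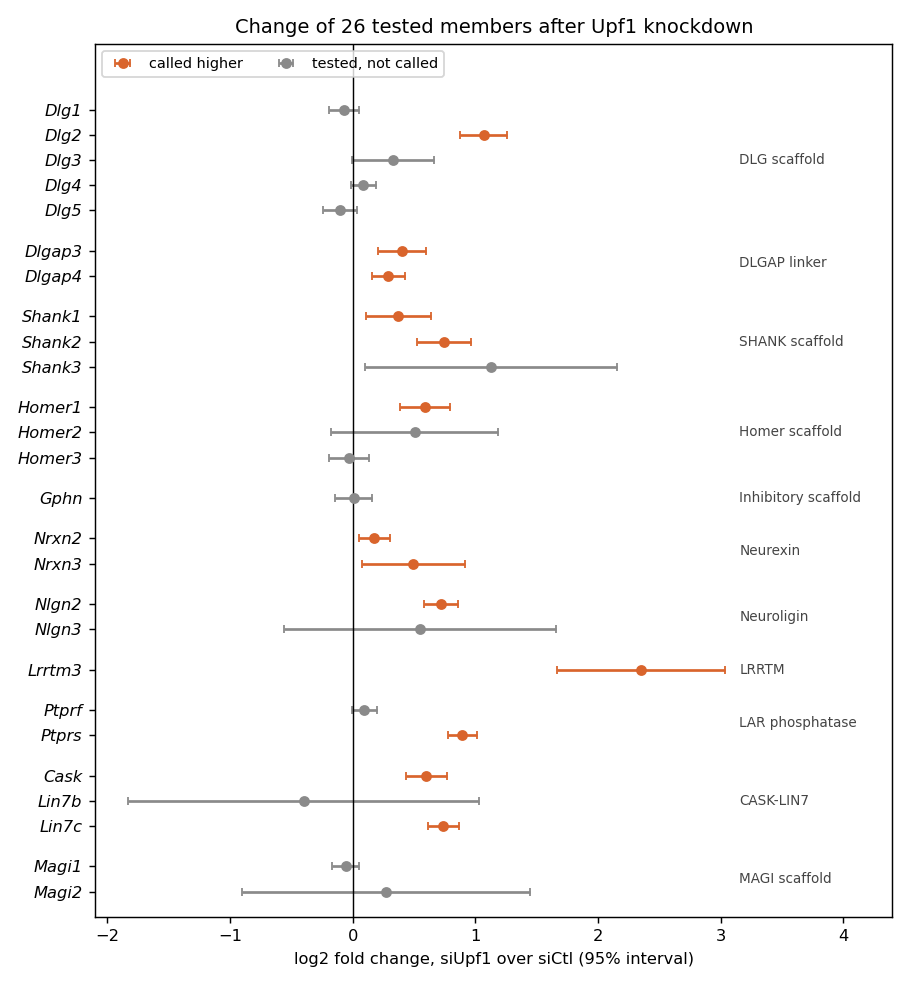
Log2 fold change of each of the 26 tested members (siUpf1 over siCtl) with its 95% interval from DESeq2, in 11 role groups, from 2 siCtl and 3 siUpf1 libraries. The called members (orange) lie between 0.18 and 2.35, and the members that were not called (grey) lie between -0.40 and 1.12, with the widest intervals at the members of lowest level.

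The sizes were mostly moderate. Dlg2 and Lrrtm3 reached a log2 fold change of at least 1, and 8 of the called members reached at least 0.5. Of the 20 tested members that averaged at least 100 normalised counts, 12 were called higher, beside 28.1% of all genes tested at that level, and of the 6 below it Lrrtm3 was called higher, beside 6.17% of all genes there. In bulk RNA, a change in the share of cells that carry an mRNA and a change in the amount per cell cannot be told apart.

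Among the DLG scaffolds, Dlg2 alone was called. Dlg2 (chromosome 7, 90476672 to 92449247) encodes PSD-93, which clusters NMDA receptors and potassium channels. It had 452 and 491 normalised counts in siCtl and 1043, 939 and 979 in siUpf1, with no overlap between the groups. The mean went from 471 ± 27.4 (SD, n = 2) to 987 ± 52.7 (SD, n = 3), with 1.07 as log2 fold change (SE 0.097, DESeq2 adjusted p = 6.72e-27). Of its exonic bases, 225 overlap another gene on the same strand, as do 126 of Dlg5 and 203 of Magi2, and reads there are uncertain.

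The other 4 DLG genes were tested and not called. Dlg4, which encodes PSD-95, the most abundant scaffold of excitatory synapses, had 4110 and 3895 normalised counts in siCtl and 4092, 4403 and 4260 in siUpf1. These groups overlapped, and the 95% interval of its log2 fold change ran from -0.02 to 0.19. Dlg1 (SAP97, which also acts in epithelial polarity) had 2367 and 2459 in siCtl and 2365, 2196 and 2323 in siUpf1, so that all siUpf1 libraries were below siCtl, but by little (interval -0.19 to 0.05). Dlg5 had an interval of -0.24 to 0.03. Dlg3 (SAP102, prominent in young neurons) had a log2 fold change of 0.33 with an interval of -0.00 to 0.66, and it was called only with edgeR (adjusted p = 0.0147).

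The linkers between DLG and SHANK were both called higher where they had enough reads to be tested. Dlgap3 had 530 and 508 normalised counts in siCtl and 671, 689 and 697 in siUpf1 (log2 fold change 0.40, SE 0.099, DESeq2 adjusted p = 0.000201). Dlgap4 had 1716 and 1674 in siCtl and 1967, 2208 and 2046 in siUpf1 (log2 fold change 0.29, SE 0.068, DESeq2 adjusted p = 8.58e-05). In neither gene did the groups overlap. Dlgap1 and Dlgap2 were at the edge of detection, with at most 8.91 normalised counts of Dlgap1 (siUpf1 replicate 3) and at most 0.89 of Dlgap2 in any library, and were not tested.

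Of the SHANK genes, which encode large master scaffolds linked to autism, Shank2 and Shank1 were called. Shank2 (chromosome 7, 144001928 to 144424494) had 415 and 409 normalised counts in siCtl and 645, 665 and 759 in siUpf1. All siUpf1 values were far above siCtl (log2 fold change 0.74, SE 0.111, DESeq2 adjusted p = 1.86e-10). Shank1 had 268 and 309 in siCtl and 393, 345 and 381 in siUpf1, a smaller difference (log2 fold change 0.37, SE 0.136, DESeq2 adjusted p = 0.0161) whose call was lost without siCtl replicate 1 (adjusted p = 0.265), siUpf1 replicate 1 (0.0988) or siUpf1 replicate 3 (0.0857). Shank3 was scarce. It had 22.0 and 7.55 normalised counts in siCtl and 29.3, 27.6 and 38.3 in siUpf1, the log2 fold change was 1.12 and not called (SE 0.524, DESeq2 adjusted p = 0.0680), and it depended on the siCtl library kept, being 2.07 without siCtl replicate 1 (called, adjusted p = 0.0239) and 0.53 without siCtl replicate 3 (adjusted p = 0.565).

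Homer proteins tie SHANK to metabotropic glutamate receptors and to intracellular calcium channels, and of their 3 genes only Homer1 was called. Homer1 (chromosome 13, 93299635 to 93405129) had 578 and 523 normalised counts in siCtl and 910, 756 and 808 in siUpf1, with no overlap (log2 fold change 0.59, SE 0.105, DESeq2 adjusted p = 1.42e-07). Homer3 had 914.1 and 914.2 in siCtl and 881, 892 and 907 in siUpf1. Its groups did not overlap either, in the other direction, yet the difference was not called (interval -0.20 to 0.13). Homer2, with 34.9 to 56.5 normalised counts over the 5 libraries, had a log2 fold change of 0.50 that was not called (interval -0.18 to 1.19). Gene-level counts cannot separate the short, activity-induced form of Homer1 from the long forms.

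Gphn, the gene of the inhibitory scaffold gephyrin, was as close to no difference as any member. It had 1212 and 1295 normalised counts in siCtl and 1321, 1258 and 1207 in siUpf1, and these ranges overlapped. Its log2 fold change was 0.01 with an interval of -0.14 to 0.16, and its sign turned negative with TMM scaling, after removal of the length and GC trend, and without siCtl replicate 1 or siUpf1 replicate 1.

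On the adhesion side, neuroligin 2, the neuroligin of inhibitory synapses and a binding partner of gephyrin, was called. Nlgn2 (chromosome 11, 69823122 to 69837784) had 1163 and 1114 normalised counts in siCtl and 1813, 1943 and 1864 in siUpf1. Every siUpf1 library was thus well above siCtl (log2 fold change 0.72, SE 0.070, DESeq2 adjusted p = 2.63e-23). Nlgn1, which acts at excitatory synapses, had at most 9.43 normalised counts in any library and was not tested. Nlgn3 had 12.3 to 27.6, overlapping groups and an interval of -0.56 to 1.66, and 3823 bases of its exons overlap the gene Gm21986 on the same strand.

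Both neurexin genes on the list were called, with small differences that did not withstand every change of the samples. Neurexins are the presynaptic receptors of neuroligins and LRRTM proteins. Nrxn2 had 2268 and 2021 normalised counts in siCtl and 2367, 2449 and 2454 in siUpf1 (log2 fold change 0.18, SE 0.065, DESeq2 adjusted p = 0.0161), and its log2 fold change became 0.09 (adjusted p = 0.430) without siCtl replicate 3. The call was also lost without siUpf1 replicate 2 (adjusted p = 0.0573) or replicate 3 (0.0790). Nrxn3 had 103 and 95.3 in siCtl and 143, 146 and 129 in siUpf1 (log2 fold change 0.49, SE 0.214, DESeq2 adjusted p = 0.0485). In neither gene did the groups overlap, but the call of Nrxn3 was lost without any single library (adjusted p from 0.0930 to 0.277).

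Lrrtm3, a leucine-rich repeat protein that binds neurexins, had the largest fold change of the tested members. Lrrtm3 (chromosome 10, 63928472 to 64090277) had 26.2 and 13.2 normalised counts in siCtl and 96.9, 107.9 and 94.5 in siUpf1. The lowest siUpf1 library was thus more than 3 times the highest siCtl library. The log2 fold change was 2.35 (SE 0.349, DESeq2 adjusted p = 1.42e-10), with a 95% interval of 1.67 to 3.04 that reflects the few reads in siCtl, and it was 1.40 after shrinkage. Lrrtm1 and Lrrtm2 had no read in any library, and 3 reads, the upper limit that a count of 0 allows, correspond to 0.108 to 0.147 CPM (reads scaled to the depth of the library).

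The LAR-type receptor phosphatases, which bind many postsynaptic partners and proteoglycans, included 1 called gene, Ptprs. Ptprs (chromosome 17, 56412426 to 56476483), which encodes PTPσ, had 1821 and 1756 normalised counts in siCtl and 3162, 3386 and 3408 in siUpf1. The mean went from 1788 ± 46.0 (SD, n = 2) to 3319 ± 136.3 (SD, n = 3), with no overlap and the lowest adjusted p of all members (log2 fold change 0.89, SE 0.060, DESeq2 adjusted p = 1.06e-47). Ptprf, which encodes LAR, had 3932 and 3891 in siCtl and 3991, 4235 and 4289 in siUpf1. All siUpf1 values of Ptprf were above siCtl, but the log2 fold change of 0.09 was not called (interval -0.01 to 0.19) and changed sign, to -0.01, once the length and GC trend was removed. Ptprd, the third gene of this type, had no read in any library.

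Cask and Lin7c, genes of a complex of PDZ proteins that binds neurexins and carries receptors to the membrane, were both called. Cask (chromosome X, 13517080 to 13851367) had 710 and 719 normalised counts in siCtl and 1132, 1081 and 1036 in siUpf1 (log2 fold change 0.60, SE 0.086, DESeq2 adjusted p = 2.28e-11). Lin7c (chromosome 2, 109890853 to 109901003) had 1592 and 1773 in siCtl and 2921, 2717 and 2785 in siUpf1 (log2 fold change 0.74, SE 0.066, DESeq2 adjusted p = 6.43e-28). For both genes the groups were far apart. The other Lin7 genes were scarce, with 7.13 to 15.1 normalised counts of Lin7b, which was not called (interval -1.83 to 1.03), and at most 2.67 of Lin7a, which was not tested. The Magi genes, inverted relatives of the DLG scaffolds, were not called. Magi1 was abundant, with 2838 and 2694 in siCtl and 2675, 2604 and 2681 in siUpf1 and an interval of -0.17 to 0.05, whereas Magi2 had 11.5 to 20.1 normalised counts and an interval of -0.91 to 1.45.

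**Figure D2:**
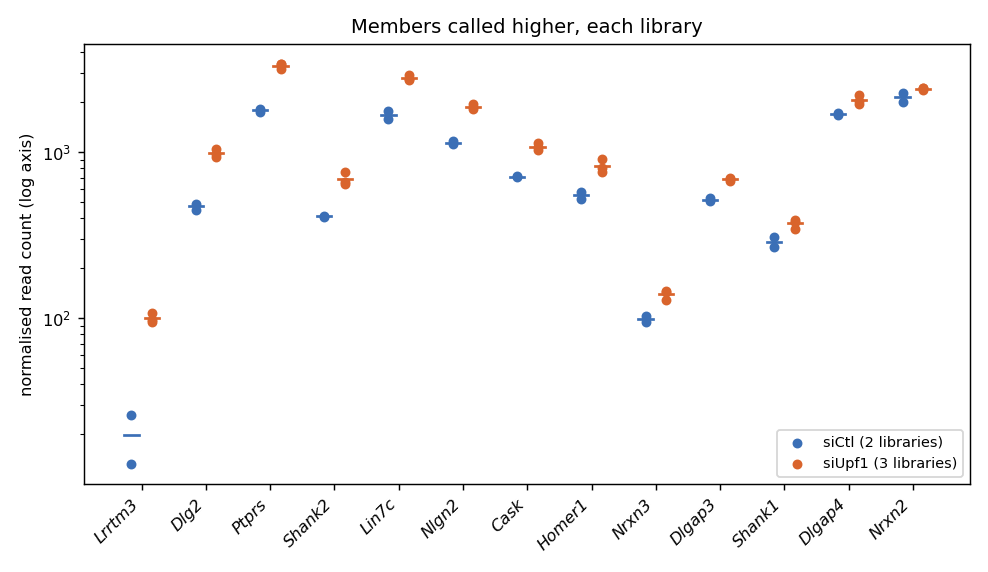
Normalised read counts (log axis) of the 13 members called higher, with 1 point per library, 2 for siCtl (blue) and 3 for siUpf1 (orange), and a bar at each group's mean. In every gene the siUpf1 points lie above the siCtl points, by the widest margin in Lrrtm3 (94.5 to 107.9 against 13.2 to 26.2) and by the narrowest in Nrxn2 (2367 to 2454 against 2021 to 2268).

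Because paralogs can stand in for each other, the levels within each family were compared as normalised counts per kilobase of exon. In siCtl the order of levels began with Ptprf (428 normalised counts per kilobase), Lin7c (372), Gphn (334) and Dlg4 (302), followed by Homer3 (266) and Magi1 (261), which at this length differed by less than the spread between libraries. In siUpf1 the level of Lin7c was 621 ± 22.9 per kilobase and that of Ptprf 456 ± 17.4, so that Lin7c led. This order rested on the length used, because with the length of 1 representative transcript Dlg4 led in both groups, at 1147 in siCtl and 1219 in siUpf1, followed in siCtl by Dlg1 (517) and Ptprf (511) and in siUpf1 by Lin7c (664) and Ptprf (545). The lower end held Nlgn1 at 0.53 and Dlgap1 at 0.026 normalised counts per kilobase.

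Most families were carried by 1 or 2 genes. Nlgn2 made up 98.8% to 99.4% of the neuroligin level in every library, Magi1 99.3% to 99.6% of the Magi level, Lin7c 97.4% to 99.1% of the Lin7 level and Nrxn2 93.8% to 95.3% of the level of the 2 neurexins. The DLG level was shared by Dlg4, Dlg1 and Dlg5, and Dlg2 went from 3.66% ± 0.311 (SD, n = 2) in siCtl to 7.35% ± 0.376 (SD, n = 3) in siUpf1. Ptprs went from 21.8% ± 0.312 to 32.7% ± 0.104 of the LAR-type level, and Homer1 from 14.6% ± 0.871 to 20.7% ± 1.70 of the Homer level. Shank2 went from 56.9% ± 1.58 to 62.2% ± 2.21 of the SHANK level. For each of these 4 genes no siUpf1 library overlapped a siCtl library. With the length of 1 representative transcript in place of all exons the same shares were 3.17% and 6.29% for Dlg2, 33.8% and 47.0% for Ptprs, 34.8% and 44.3% for Homer1, and 59.4% and 64.4% for Shank2.

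**Figure D3:**
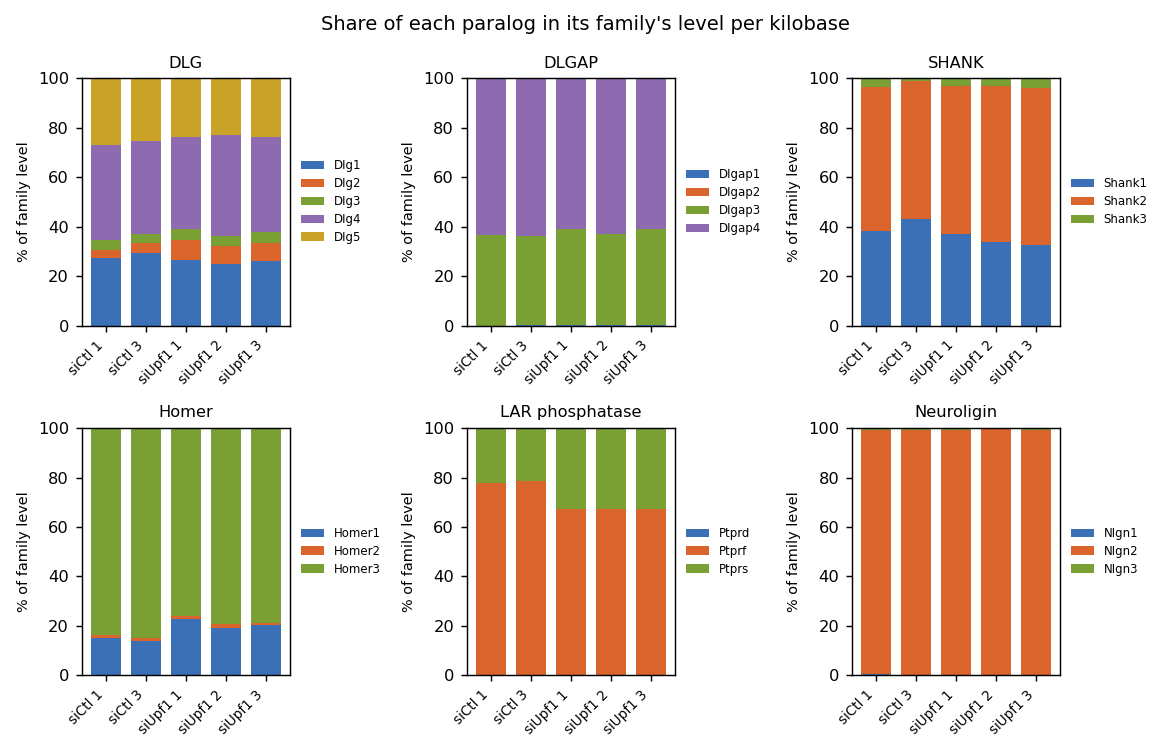
Share of each paralog in the summed level of its family (normalised counts per kilobase of exon, in percent) in each of the 5 libraries, for 6 families. The shares of Dlg2, Ptprs and Homer1 are larger in all 3 siUpf1 libraries, while Nlgn2 and the Dlgap pair keep nearly the same shares.

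Ratios within a library need no scaling between libraries. They restate the fold changes above, since they use the same counts, and are no separate evidence. Except for Lin7c to Cask, each pair named here sets a called member over a member that was not called. The log2 ratio of Dlg2 to Dlg4 was -3.19 and -2.99 in siCtl and -1.97, -2.23 and -2.12 in siUpf1. That of Ptprs to Ptprf was -1.11 and -1.15 in siCtl and -0.34, -0.32 and -0.33 in siUpf1, and that of Homer1 to Homer3 was -0.66 and -0.81 in siCtl and 0.05, -0.24 and -0.17 in siUpf1. The ratio of Nlgn2 to Gphn, an adhesion protein and its inhibitory scaffold, was 0.71 higher in siUpf1 on the log2 scale. The ratio of Lin7c to Cask, partners in 1 complex, differed by 0.14. With 2 libraries against 3, an exact permutation test cannot give a p under 0.1, so these ratios and shares carry no test.

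Structural features of the mRNAs were read from the GENCODE M21 annotation of GRCm38, 1 representative transcript per gene. The 13 called members had a median 3′ UTR of 2081 bases and the 13 that were tested and not called had one of 1565 bases, both longer than the 984 bases of all 12741 coding genes tested and the 1451 bases of the coding genes called higher. Across the 26 tested members, the Spearman correlation of the log2 fold change with 3′ UTR length was 0.42, and across all coding genes tested it was 0.18. These correlations are across genes, which share the same libraries and are not replicates. Upstream start codons lay in the 5′ leader of 10 of the 13 called members, 7 of the 13 not called and 51.6% of coding genes tested.

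Annotated NMD isoforms were not more frequent among the called members. An isoform of the class that ends in a premature stop codon was annotated for 1 called member (Nrxn3) and for 7 members that were not called (Dlg1, Dlg4, Dlg5, Magi1, Homer2, Shank3 and Lin7b), against 26.8% of coding genes called higher and 28.4% of coding genes tested. No member's representative transcript had an exon junction after its stop codon, a feature of 4.09% of coding genes tested. Counts per gene do not separate isoforms, so a change in a single isoform of a member was not measured.

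The 7-base sites opposite the siRNA seeds were searched in the representative 3′ UTRs of the 26 tested members on the mRNA strand. The site of the antisense strand, GATAATT, was in 1 of them (Homer1, with 2 copies) and in 7.83% of the 12405 3′ UTRs searched. The site of the sense strand, AACCTTG, was in 4 of them (Cask, Dlgap4, Lrrtm3 and Shank1) and in 10.0% of all. All 5 members with either site were called higher, as were 13 of the 26 members searched. Either site was in 16.1% of all 3′ UTRs searched. How many of those genes were called higher was not counted, so the 5 members have no background share. Over all 3′ UTRs searched, the median log2 fold change was 0.00 with the antisense site and -0.02 without it, and it was -0.11 with the sense site and -0.02 without it. Over every annotated coding isoform, the antisense site was also found in Dlg4, Homer2 and Magi1 and the sense site in Dlg4, none of which was called. The part of these sites in the results was not tested. Windows of 23 bases are printed 5′ to 3′ on the mRNA strand, with the site in capitals and positions in GRCm38.
Dlgap4 (chr2:156763266-156763288, plus strand): tccaaggcAACCTTGggcccctg
Shank1 (chr7:44359492-44359514, plus strand): atgcagggAACCTTGtgggaggg
Lrrtm3 (chr10:63929540-63929562, minus strand): tgcccagaAACCTTGactctgaa
Homer1 (chr13:93402682-93402704, plus strand): tttctcagGATAATTtttcgctg
Homer1 (chr13:93403180-93403202, plus strand): ttattataGATAATTttaaggta
Cask (chrX:13517907-13517929, minus strand): atgtgcaaAACCTTGgcacttgg

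Promoter sequence was examined because called members and members that were not called share families. RefSeq (GRCm38.p6) gave a promoter for 25 of the 33 members, and the 250 bases before the start site were searched on both strands. Where RefSeq gave several start sites, the one nearest to the start of the representative transcript was taken. It was within 2000 bases of that start for 21 members but not for Dlg3, Dlgap1, Dlgap4 and Magi1, which were 6773 to 369632 bases away. The start site of Dlg2 lies 614114 bases inside the gene, since its representative transcript begins at an internal promoter. Those of Nrxn3, Homer1 and Dlgap3 also lie inside their genes, 71628, 4122 and 3676 bases from the outermost annotated start. The member promoters had a median GC content of 62.4% and 11 CpG, against 52% and 6 over 27000 promoters. These were the first one listed for each other gene, with no restriction to coding or tested genes. The 2 sets were thus not chosen alike, which also holds for the motif shares below. The GC box GGGCGG was in 11 of the 25, against 32.9% of all promoters, including 2 of the 9 promoters of called members and 8 of the 12 of members tested and not called. Without the 4 distant start sites it was in 9 of 21, including 1 of 8 called and 7 of 10 not called. The 8 still include Dlg2, Nrxn3, Homer1 and Dlgap3, whose internal start sites have no GC box. The called and not called members are thus not compared at like promoters. CACGTG was in 3 of the 25 (6.04% of all), CAGCTG in 4 (12.8%), TGACG in 4 (17.9%) and GCATGCG in 1 (3.07%), while TAATTA (4.91%) and TATAAA (13.0%) were in none. The pairs Ptprs with Ptprf and Dlg2 with Dlg1 are printed, a called gene followed by a paralog that was not called, with the motifs named above in capitals on either strand. Ptprs has 3 copies of CACGTG and no GC box, and Ptprf has 2 GC boxes and no CACGTG. Dlg2 has neither, and Dlg1 has 1 of each.
Ptprs (chr17:56476481-56476730, minus strand): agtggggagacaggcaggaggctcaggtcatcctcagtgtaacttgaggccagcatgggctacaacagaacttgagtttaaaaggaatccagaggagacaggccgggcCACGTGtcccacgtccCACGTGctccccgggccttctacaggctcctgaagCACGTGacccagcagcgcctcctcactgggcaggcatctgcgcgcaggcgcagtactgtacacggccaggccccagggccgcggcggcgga
Ptprf (chr4:118291398-118291647, minus strand): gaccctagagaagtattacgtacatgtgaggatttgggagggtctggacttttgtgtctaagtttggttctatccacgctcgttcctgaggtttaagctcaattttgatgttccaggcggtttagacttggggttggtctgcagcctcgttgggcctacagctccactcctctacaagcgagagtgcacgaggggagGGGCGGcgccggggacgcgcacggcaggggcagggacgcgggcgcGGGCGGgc
Dlg2 (chr7:91090536-91090785, plus strand): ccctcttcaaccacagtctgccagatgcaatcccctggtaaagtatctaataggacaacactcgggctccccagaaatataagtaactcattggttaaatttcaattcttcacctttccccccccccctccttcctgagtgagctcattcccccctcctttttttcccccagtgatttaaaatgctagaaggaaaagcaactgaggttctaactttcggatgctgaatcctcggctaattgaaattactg
Dlg1 (chr16:31663685-31663934, plus strand): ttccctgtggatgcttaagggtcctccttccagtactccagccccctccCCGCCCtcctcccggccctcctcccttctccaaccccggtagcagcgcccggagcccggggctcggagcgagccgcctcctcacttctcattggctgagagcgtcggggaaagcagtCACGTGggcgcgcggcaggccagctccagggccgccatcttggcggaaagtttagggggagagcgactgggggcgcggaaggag

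Genes with related roles that are not on the list were counted in the same fit. Of 73 other synaptic adhesion and scaffold genes, 59 had a read and 46 were tested, with 28 called higher, 5 called lower and a median log2 fold change of 0.51. The adhesion genes among them were higher in 15 of 19 tested cases and lower in none, whereas the scaffold genes were higher in 13 and lower in 5 of 27. Among those called at mean levels of at least 100 normalised counts, the 3 largest log2 fold changes were those of Tanc2 (1.33, SE 0.056), a postsynaptic scaffold, Flrt3 (1.31, SE 0.231), a ligand of latrophilins, and Apba1 (1.27, SE 0.111), which encodes the CASK partner MINT1. The 3 smallest were those of Sipa1l1 (-0.79, SE 0.055), a PSD-95-binding regulator of spines, the activity-regulated gene Arc (-0.50, SE 0.099) and Tanc1 (-0.30, SE 0.066). Tanc1 and Tanc2 are thus paralogs called in opposite directions.

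Markers of other cell types were read beside the members. Of 7 mature neuron markers, 6 had a read, Slc17a6 had none, and Snap25 and Camk2a were called higher, with a summed level of 3639 to 3695 normalised counts in siCtl and 4336 to 4771 in siUpf1. These 2 genes made up most of that sum, and the list's median log2 fold change was 0.01. Slc17a7 (-0.48), Gad1 (-0.46) and Rbfox3 (-0.28) had negative values and Gad2 (0.87) a positive one, none of them called. The part of this difference in the members' results was not tested. The neuroblastoma markers summed to 62121 to 62405 in siCtl and 61539 to 65897 in siUpf1, with 7 of 13 tested called higher and 3 lower. Astrocyte markers (4 of 5 with a read, Slc1a3 at 0) summed to 34.0 to 55.6 in siCtl and 25.0 to 32.6 in siUpf1, and oligodendrocyte markers (3 of 5, Mog and Mag at 0) to 462 to 502 and 518 to 548. Microglial markers (3 of 4, Cx3cr1 at 0) summed to 5.24 to 5.66 in siCtl and 0 to 3.77 in siUpf1, fibroblast markers (4 of 5, Lum at 0) to 288 to 306 and 223 to 258, and endothelial markers (2 of 3, Kdr at 0) to 214 to 224 and 133 to 140. Of these 5 non-neuronal lists, 2 astrocyte, 2 oligodendrocyte, 3 fibroblast and 2 endothelial genes were tested, and no microglial gene was. None was called higher, beside 22.0% of all genes tested. Called lower were 3, namely Aldh1l1 (log2 fold change -1.20), Pdgfra (-0.47) and Pecam1 (-0.78), beside 22.9% of all genes tested. With so few genes tested, these counts describe the listed genes only.

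How far the counts rested on the processing was examined in 12 alternatives that made calls. The same 8 members (Cask, Dlg2, Homer1, Lin7c, Lrrtm3, Nlgn2, Ptprs and Shank2) were called higher in all of them. How many of all genes were called higher in every alternative was not counted. Removal of the trends that fold changes showed with mRNA length and GC content had the largest effect on direction, since it lowered the members' median log2 fold change from 0.39 to 0.25, left 10 members called higher and made 3 be called lower, namely Dlg1 (-0.14), Dlg5 (-0.20) and Magi1 (-0.18), which before were not called. Across the whole table the same setting called 3220 genes higher and 3906 lower, where 3341 and 3481 were called before. The members that lost their call there were Nrxn2 (0.06, adjusted p = 0.454), Shank1 (0.23, 0.174) and Nrxn3 (0.36, 0.162). Over the alternatives in which each was tested, the adjusted p ran from 0.00262 to 0.265 for Shank1, from 0.00908 to 0.454 for Nrxn2, from 0.00535 to 0.341 for Nrxn3, from 0.0147 to 0.471 for Dlg3 and from 0.0169 to 0.565 for Shank3.

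**Figure D4:**
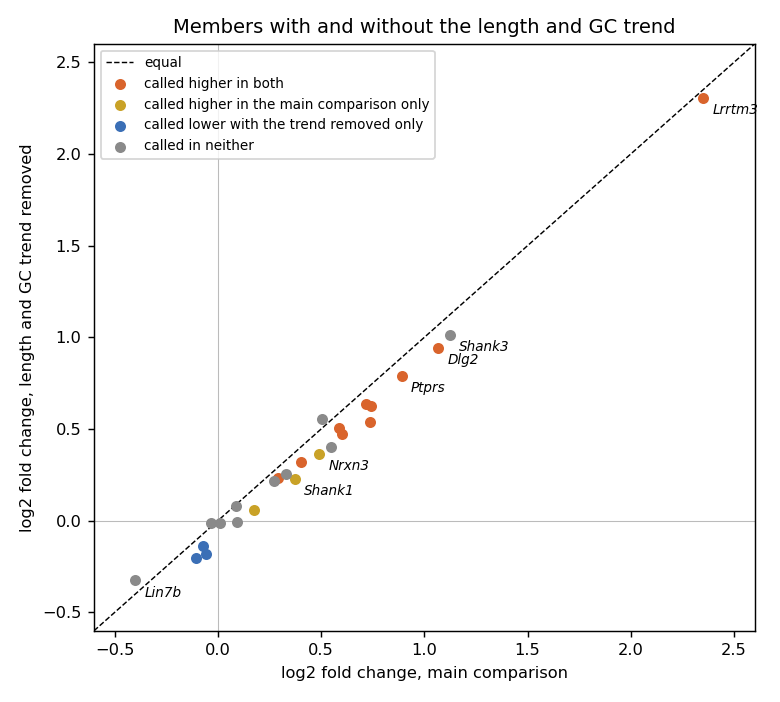
Log2 fold change of the 26 tested members in the main comparison (horizontal axis) against the value with each library's length and GC trend removed (vertical axis), with the line of equal values dashed. Most points lie below the line, 10 members are called higher on both axes (orange), and Dlg1, Dlg5 and Magi1 (blue) are called lower only with the trend removed.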

How the data were processed

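RNA from 2 siCtl and 3 siUpf1 libraries of N2A cells was analysed. The authors deposited raw read counts per gene. Per the study's methods, reads were trimmed with fastp, mapped to GRCm38.p6 with STAR (2.7.0f among the submitters' processing notes) and counted per gene by featureCounts (Subread 1.6.4) over exons in reverse-stranded mode, without normalisation or pooling. PCR duplicates cannot be recognised in such counts, so floors of 3 reads cover counting error only. Every row names a gene.

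From these counts, DESeq2 1.42.0 (R 4.3.3) was fitted to the whole table on group alone, with its own size factors (median of ratios) and its independent filtering. Adjusted p-values are Benjamini-Hochberg values, and those under 0.05 counted as calls. The 95% intervals are Wald intervals. Differences are log2 of siUpf1 over siCtl, and means are given with the SD between libraries. Alternatives were edgeR 4.0.16 (quasi-likelihood), TMM or total-count scaling, the restriction to genes with 10 or more counts in 2 or more libraries, no independent filtering, the replicate number as a block, each library left out in turn, shrunken fold changes, and removal of each library's length and GC trend (a spline with 4 degrees of freedom). Representative transcript length for levels, and the omission of distant promoters, were added after seeing the data. Scripts were tested on simulated data.

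Lengths and isoforms were read from GENCODE M21 for GRCm38. The annotation used for counting was M22 or M25, so some gene models can differ. The members and gene lists were chosen with earlier results of these data known. All 33 members were named, with Upf1 and, of the other organisers, the called genes at both ends of the range of log2 fold change, 3 at each end, at a mean of at least 100 normalised counts. The mature neuron markers were all named. Other marker genes are named by their calls or because they were at 0 or nearly so, after their values were seen.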

Additional observations from a re-analysis of the deposited data

How the results depend on the processing

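Over 12 alternatives with calls and shrinkage, 289 of 322 member values kept their direction and their side of the threshold, 21 lost a call, 7 gained one and 5 changed sign. Part of this was fixed in advance. Shrinkage kept the adjusted p of the main comparison, so no call could change there, and without independent filtering no direction could. The sign changes were those of Gphn with TMM scaling (-0.000359), without siCtl replicate 1 or siUpf1 replicate 1 (from -0.0417 to 0.0560 over the omissions) and after removal of the length and GC trend (-0.0115), and of Ptprf after that removal (-0.00746). The members' median log2 fold change was 0.36 with TMM, 0.42 with total counts, 0.45 without independent filtering, 0.29 after shrinkage and 0.25 with the trend removed, where 3 members were called lower. With a library left out it was 0.39 to 0.46. Without 1 of the siUpf1 libraries, 10 or 11 members were called higher, where 13 were in the main comparison. Over the whole table, 2802 to 2944 genes were called higher in these fits, where 3341 were in the main comparison. Leaving out a siCtl library leaves 1 control, which is assumed to vary like the other libraries. With representative transcript lengths the siCtl and siUpf1 shares were 3.17% and 6.29% for Dlg2, 33.8% and 47.0% for Ptprs, 34.8% and 44.3% for Homer1, and that of Shank2 in siCtl was 59.4%. Without independent filtering the fold changes were those of the main comparison, and the median also took in Dlgap1, Dlgap2, Nlgn1 and Lin7a, which had few reads. The cause of the other differences was not tested.

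The deviations of same-numbered libraries from their group means correlated at -0.0513 (number 1) and -0.0637 (number 3), which gave no sign of pairing by replicate number. With 2 siCtl libraries these deviations mirror each other in siCtl, so the values are not separate checks and cannot exclude a pairing. With the number as a block, 1957 genes were called higher and 1962 lower, 8 members were called higher (Dlgap3, Dlgap4, Shank1, Nrxn2 and Nrxn3 were not) and the members' median was 0.41. Members under about 20 normalised counts (Nlgn3, Lin7b and Magi2) had intervals wider than 2 log2 units, so that a change of the size seen in Dlg2 was not detectable for them at this depth.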
